A study of Mus musculus with 12 samples.

Results

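The 10 genes described here lie on mouse chromosome 9 inside or around Slc6a20a, the gene targeted in this series, and were taken by symbol from a deposited table of 19775 genes. Gm17120, Gm47173 and Gm47171 are annotated inside Slc6a20a itself. Lztfl1, Sacm1l, Limd1, Lars2, Clec3b, Exosc7 and Ss18l2 are protein-coding genes outside it, at distances from 15.5 kb (Lztfl1) to 1921 kb (Ss18l2). All 10 were present in the table. They were selected on their position and on their normalized counts in these same 12 mice, so the genotype differences of the members are given as descriptions with their standard errors (SE) and with no p-value.

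The study sequenced whole-brain RNA from 12 male mice of the C57BL/6N strain at about postnatal day 120, with 4 mice for each genotype. Wild-type (WT), heterozygous (HT, Slc6a20a+/–) and homozygous mutant (HM, Slc6a20a–/–) mice came from crosses between heterozygous parents. The mutant allele lacks exon 3 of Slc6a20a and is inherited through the germline, WT mice carry no mutant allele, and no treatment was given. The values are normalized counts, in which each library was already scaled to the others by the authors, so the sums per mouse, from 33284951 to 33748623, do not show how many reads were sequenced. The same 4 WT mice served as controls for HT and for HM mice, so these 2 comparisons are not independent. The summed level of 8 neuronal and glial marker genes lay between 274161 and 306480 in every mouse, and none of these genes was at 0 in any mouse.

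Slc6a20a encodes a sodium-coupled transporter of proline and glycine in the plasma membrane. Genes that share a stretch of chromosome can overlap on opposite strands, and a long intron can hold further transcripts, either separate genes or pieces of unspliced host RNA that annotators have recorded as genes. RNA-seq libraries that do not keep the strand, as with the kit used here, cannot tell reads of a gene from reads of a transcript on the other strand, so the values of genes that overlap are uncertain.

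The arrangement of the locus is shown first, because it decides which members share sequence. Coordinates are those of GRCm38 with the GENCODE M21 annotation. Slc6a20a occupies chr9:123634770-123678885 on the minus strand. Its exon 3, the deleted exon, is 92 bp long at chr9:123662949-123663040, a length that leaves a remainder of 2 when divided by 3. In the mRNA, exon 3 is printed in capitals below between the last 12 bases of exon 2 and the opening 12 bases of exon 4, followed by the junction that joins exon 2 directly to exon 4, with exon 4 in capitals.
Slc6a20a exon 3 with flanks: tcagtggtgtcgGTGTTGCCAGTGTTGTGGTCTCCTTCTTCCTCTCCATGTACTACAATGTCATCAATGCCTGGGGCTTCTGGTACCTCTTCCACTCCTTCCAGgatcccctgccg
Slc6a20a exon 2 to 4 junction: tcagtggtgtcgGATCCCCTGCCG

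All 3 intragenic members lie downstream of exon 3. Gm17120 is an antisense gene on the plus strand at chr9:123635388-123637325. Its exon 2 overlaps exon 11 of the main Slc6a20a transcript by 415 bp and intron 10 by 180 bp. A stretch of 60 bp within that overlap, chr9:123637039-123637098, is coding sequence of Slc6a20a, and it is printed on both strands because it shows the same bases read in either direction.
Slc6a20a exon 11, minus strand: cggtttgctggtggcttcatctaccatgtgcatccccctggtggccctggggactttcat
Gm17120 exon 2, plus strand: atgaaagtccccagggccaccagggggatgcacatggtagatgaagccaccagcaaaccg

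Gm47173 (chr9:123643166-123645489, plus strand) and Gm47171 (chr9:123644194-123646987, minus strand) are single-exon entries of the class TEC, which marks transcripts that await experimental evidence. Both lie wholly inside intron 7 of Slc6a20a, which is 13088 bp long, so neither overlaps an exon of that transcript. They overlap each other by 1296 bp on opposite strands. The 60 bp at chr9:123644811-123644870, within this overlap, are again printed for both members.
Gm47173, plus strand: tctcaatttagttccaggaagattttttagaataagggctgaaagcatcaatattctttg
Gm47171, minus strand: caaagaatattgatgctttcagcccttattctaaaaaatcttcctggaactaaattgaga

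**Figure D1:**
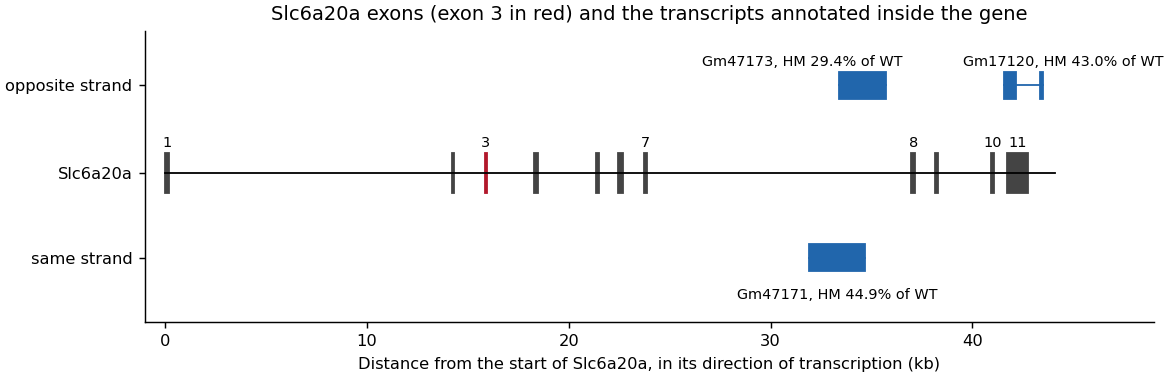
Exons of Slc6a20a (dark bars, exon 3 in red, selected exons numbered) and the 3 transcripts annotated inside the gene (blue), by distance in kb from the start of Slc6a20a. All 3 lie after exon 3, and the HM mean as a percentage of the WT mean is written beside each.

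Sequence sharing was measured as the percentage of the distinct 31-base words of a gene's transcripts that also occur in transcripts of another gene, on either strand. Gm17120 shared 71.4% of its words, 509 of 713, and all of them with Slc6a20a. Gm47173 shared 55.2% of its words, all of them with Gm47171, and Gm47171 shared 45.8% with Gm47173. Among the outer members, Sacm1l shared 47.4% of its words with Slc6a20b, the neighbouring paralog whose gene body it overlaps by 1801 bp, and Lztfl1 shared 8.66% with other genes. Clec3b, Limd1 and Ss18l2 shared none, Exosc7 0.0839% and Lars2 0.923%.

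Slc6a20a itself was examined before the members, since it checks the genotype labels. Its normalized counts were 704, 584, 678 and 750 in the WT mice, 332, 366, 372 and 310 in the HT mice and 69.0, 55.6, 76.5 and 57.1 in the HM mice. The genotypes did not overlap, and the means of HT and HM mice were 50.8% and 9.50% of the WT mean. HT differed from WT by -0.97 on the log2 scale (SE 0.09, limma adjusted p = 0.000938) and HM by -3.38 (SE 0.12, limma adjusted p = 1.75e-08).

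The transcripts inside Slc6a20a had lower means in both mutant genotypes than in WT mice, and Gm47173 kept the smallest share of its WT mean in HM mice. Its normalized counts were 54.2, 63.6, 76.4 and 73.5 in WT mice, 46.6, 49.7, 41.4 and 34.7 in HT mice and 17.2, 11.5, 34.4 and 15.4 in HM mice. Every HM mouse was below every HT mouse, and every HT mouse was below every WT mouse. The highest HM value, 34.4, lay just under the lowest HT value, 34.7. Sets of mice whose animal numbers, carried by the column names, begin alike add no separate evidence, because their order follows from that over all mice. With the start 276, Gm47173 had 63.6 in the WT mouse, a mean of 48.1 in 2 HT mice and 15.4 in the HM mouse. For the start 274 it had 54.2 in the WT and 34.4 in the HM mouse. What a shared number start stands for is not given in the sources used here. On the log2 scale, HT mice differed from WT by -0.62 (SE 0.18), HM mice differed from WT by -1.82 (SE 0.29) and HM from HT mice by -1.20 (SE 0.29). Falling order without overlap over all 12 mice occurred in 3 of 18006 genes (0.0167%), namely Slc6a20a, Gm47173 and C1qtnf12, a gene for a secreted C1q/TNF-related protein. The same share, again 3 genes, showed the rising order.

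Gm47171 covers the other strand of the same intron. Its normalized counts were 45.9, 62.4, 86.1 and 81.1 in WT mice, 49.6, 64.2, 41.6 and 36.0 in HT mice and 47.5, 18.2, 32.6 and 25.3 in HM mice. Means fell in the order WT, HT and HM, at 68.9, 47.8 and 30.9, yet the genotypes overlapped, since WT replicate 1 at 45.9 was below HM replicate 1 at 47.5. On the log2 scale, HT mice differed from WT by -0.51 (SE 0.23), HM mice differed from WT by -1.17 (SE 0.28) and HM from HT mice by -0.66 (SE 0.28). Because the entries share 1296 bp, the sum of their normalized counts was also taken. It was 135.8 ± 28.5 (SD, n = 4) in WT mice, 90.9 ± 18.5 (SD, n = 4) in HT mice and 50.6 ± 18.3 (SD, n = 4) in HM mice, which puts HT at 67.0% and HM at 37.2% of WT.

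Gm17120, the antisense transcript across exon 11, had the lowest counts of all members, and they are uncertain because 71.4% of its sequence words are also those of Slc6a20a. It had 20.5, 11.8, 8.80 and 30.6 normalized counts in WT mice, 9.39, 11.3, 4.00 and 11.2 in HT mice and 7.57, 6.58, 7.91 and 8.75 in HM mice. The HM values all lay below the WT values, but the margin was only from 8.75 to 8.80, and the HT values overlapped both groups. The mean of 17.9 for WT mice compared with 8.97 for HT mice and 7.70 for HM mice, the last of these 43.0% of WT. On the log2 scale Gm17120 differed by -0.86 (SE 0.42) in HT and by -0.98 (SE 0.38) in HM mice. It reached the filter of a mean of 10 only in the comparisons that include WT mice, so it was not fitted for HM against HT.

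**Figure D2:**
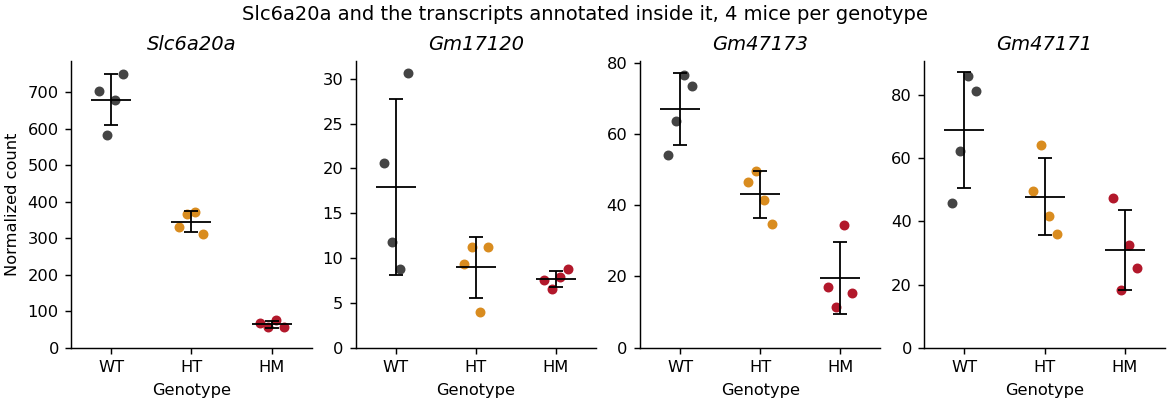
Normalized counts of Slc6a20a and of the 3 transcripts annotated inside it, with 1 point per mouse, a bar for the mean and whiskers for the SD (n = 4), on axes that start at 0. Gm47173 repeats the separated order of Slc6a20a, whereas Gm47171 overlaps between genotypes. For Gm17120 the HM values lie just below the WT values, and the HT values overlap both.

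In HM mice the intragenic transcripts did not fall as far as Slc6a20a. In these mice Slc6a20a kept 9.50% of its WT mean, compared with 29.4% for Gm47173, 43.0% for Gm17120 and 44.9% for Gm47171. In HT mice the mean of Gm17120 fell about as far as that of Slc6a20a, while the means of Gm47173 and Gm47171 fell less. Taken within each mouse, Gm47173 was 9.91% ± 1.60 (SD, n = 4) of the Slc6a20a count in WT, 12.5% ± 1.54 (SD, n = 4) in HT and 29.4% ± 10.7 (SD, n = 4) in HM mice. Gm47171 was 10.2% ± 2.61 (SD, n = 4) in WT, 13.8% ± 3.00 (SD, n = 4) in HT and 47.1% ± 15.4 (SD, n = 4) in HM mice. Gm17120, whose count cannot be separated from that of Slc6a20a where they overlap, was 2.58% ± 1.20 (SD, n = 4), 2.65% ± 1.099 (SD, n = 4) and 12.1% ± 2.22 (SD, n = 4) in the same order. For each of the 3 transcripts, all HM percentages were above all WT and HT percentages, while WT and HT percentages overlapped for Gm17120, Gm47173 and Gm47171 alike. In HM mice these ratios rest on only 6.58 to 47.5 normalized counts of the intragenic transcript and 55.6 to 76.5 of Slc6a20a.

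**Figure D3:**
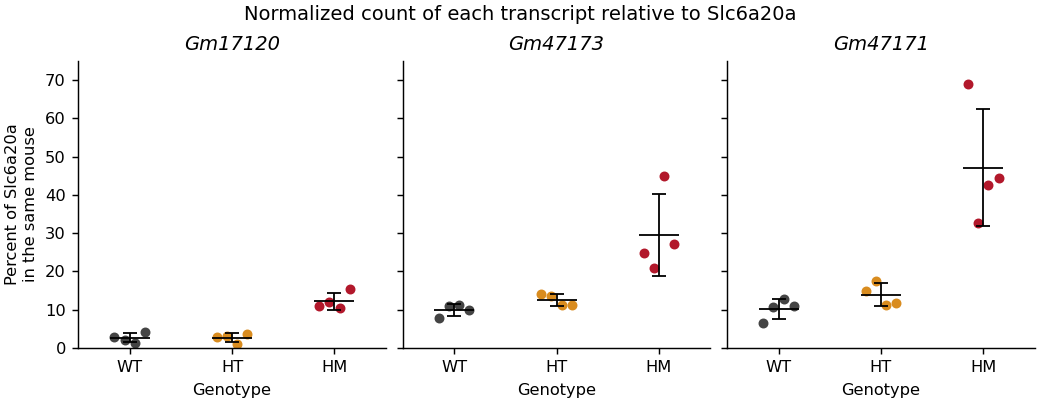
Normalized count of each intragenic transcript as a percentage of the Slc6a20a count in the same mouse, with 1 point per mouse, the mean and the SD (n = 4). The HM mice stand above the others in all 3 panels, from 10.3% to 15.3% for Gm17120, 20.8% to 45.0% for Gm47173 and 32.7% to 68.9% for Gm47171.

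Variation among mice of the same genotype was compared for the 6 pairs of these 4 genes after each genotype mean of log2(normalized count + 1) was subtracted (12 mice, permutation tests within genotypes). Subtraction removes differences between genotype means but not differences in spread. As the members were picked with these values known, the p-values are descriptive. Where genes share sequence, shared reads can also affect r, which was not tested. Slc6a20a and Gm47173 varied together with Pearson r = 0.713 (permutation p = 0.0250, BH adjusted p = 0.150) and Spearman rho = 0.615 (permutation p = 0.0578, BH adjusted p = 0.173). With the 2 most distant mice left out, r was 0.686. Gm47173 and Gm47171, which share sequence, had r = 0.614 (permutation p = 0.104, BH adjusted p = 0.270) and rho = 0.748 (permutation p = 0.0158, BH adjusted p = 0.0949), and r = 0.736 with the 2 most distant mice left out. Slc6a20a and Gm47171 had r = 0.553 (permutation p = 0.135), whereas the 3 pairs with Gm17120 had r between 0.0205 and 0.146. No pair passed the adjusted threshold of 0.05.

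The outer members are given from the nearest to the farthest. Lztfl1, which binds the BBSome, a complex that moves membrane proteins in and out of cilia, had mean normalized counts of 1862, 1853 and 1889 in WT, HT and HM mice. Sacm1l, a phosphatase of phosphatidylinositol 4-phosphate in the endoplasmic reticulum and Golgi, had 2840, 2833 and 2891, values that are uncertain to the extent that reads are shared with the overlapping Slc6a20b, whose means were 29.1, 27.1 and 17.0. The genotypes overlapped for both, and HM differed from WT by 0.02 on the log2 scale, with an SE of 0.05 for Lztfl1 and 0.04 for Sacm1l. Limd1, a LIM-domain protein of the Ajuba and zyxin family that acts in Hippo signalling, ranged from 437 to 517 in WT, 443 to 504 in HT and 383 to 479 in HM mice. These ranges overlap, and the log2 fold change was -0.01 (SE 0.07) in HT and -0.15 (SE 0.08) in HM mice.

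Lars2, the leucyl-tRNA synthetase of mitochondria, was lower in both mutant genotypes by a similar amount. Its normalized counts were 21745, 22160, 19289 and 21424 in WT mice, 16334, 19929, 17529 and 17889.8 in HT mice and 18497, 17107, 20500.3 and 18122 in HM mice. The groups touched only through WT replicate 3, which lay below HT replicate 2 and HM replicate 3, and the means of HT and HM mice were 84.7% and 87.7% of WT. On the log2 scale, HT mice differed from WT by -0.24 (SE 0.06), HM mice differed from WT by -0.19 (SE 0.06) and HM from HT mice by 0.05 (SE 0.06). In each of the 3 sets of mice whose animal numbers begin alike and that include WT mice, the mutant mean was below the WT mean of the same set. These sets regroup the values given above, so they are no separate evidence. With the start 276, Lars2 had 22160 normalized counts in the WT mouse, a mean of 18132 in 2 HT mice and 18122 in the HM mouse.

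The level of Lars2 set it apart from the enzymes of its own family. Per kb of its longest annotated transcript it had 5433 normalized counts in WT mice, in the 98.9th percentile of all genes, while 16 other mitochondrial aminoacyl-tRNA synthetases had between 51.9 and 370.5 per kb with a median of 166. Lars2 was thus 14.7-fold above Iars2, the next highest, on this scale. Its level was therefore set beside the transcripts in the table that come from, or resemble, ribosomal RNA. Of 6 such transcripts listed, only 3 were in the table. Gm42418, AY036118 and Gm26917 were absent, so they could not be compared with Lars2. Over the 12 mice Lars2 had r = 0.03 with mt-Rnr1 (permutation p = 0.932, rho = 0.0979, permutation p = 0.768), r = 0.25 with mt-Rnr2 (permutation p = 0.418, rho = 0.182, permutation p = 0.573) and r = 0.22 with Gm15564 (permutation p = 0.512, rho = 0.168, permutation p = 0.603). With the 2 most distant mice left out, r was in turn 0.311, 0.345 and -0.162. The smallest BH adjusted p of the 3 relations was 0.768. Within genotypes r was -0.40, -0.32 and 0.15, with a smallest adjusted permutation p of 0.534. mt-Rnr2 was itself lower than WT in HT mice by a log2 fold change of -0.15 (SE 0.06, unadjusted limma p = 0.0171, adjusted p = 0.768), and its part in the value of Lars2 was not tested.

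Clec3b, which encodes tetranectin, a secreted C-type lectin that binds plasminogen, had 91.1, 68.3, 79.6 and 76.5 normalized counts in WT mice, 63.3, 67.1, 72.6 and 52.4 in HT mice and 62.1, 38.1, 71.9 and 43.9 in HM mice. Means fell from 78.9 to 63.8 and 54.0, and each mutant group had only 1 mouse above the lowest WT value. On the log2 scale, HT mice differed from WT by -0.30 (SE 0.15), HM mice differed from WT by -0.58 (SE 0.20) and HM from HT mice by -0.27 (SE 0.21). In whole-brain RNA, fewer cells of a type and less RNA per cell cannot be told apart, and cells of the choroid plexus, meninges and vessels are part of the sample. The summed level of 12 choroid plexus markers had a median of 16851 in WT (range 15864 to 20635), 16235 in HT (13157 to 21046) and 13621 in HM mice (10303 to 18767), and 3 of the 12 had an unadjusted limma p under 0.05, all lower in HM than in WT. For 15 meningeal markers the medians of the sum were 7375, 7043 and 6538, with 0 of 15 at that threshold in HM against WT. In HT against WT, 1 of 15 was lower, beside 3.26% of all tested genes. For 8 endothelial markers the medians were 6671, 6999 and 7164, and for 5 pericyte markers they were 5311, 5330 and 5726. In HM against WT, 2 of the 8 and 2 of the 5 were higher at that unadjusted threshold, beside 3.93% of all tested genes. In HT against WT, 1 of the 8 was higher, beside 3.16%. In HM against HT, 2 of the 5 were higher, beside 2.11%. For 6 erythrocyte markers, most of them globin genes, the medians were 12739, 7369 and 16838, and the HM mice ranged from 5904 to 29031. Of these, 5 of 5 tested were lower in HT than in WT mice at the unadjusted threshold, beside 3.26% of all tested genes. In HM against HT, 5 of 6 were higher, beside 2.11%, and in HM against WT 1 of 6 was higher, beside 3.93%. No marker of these lists that is in the table was at 0 in any mouse, no marker passed the adjusted threshold in any comparison, and the part of these cell types in the value of Clec3b was not tested.

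Exosc7, a subunit of the RNA exosome ring, had means of 499.6, 502 and 481, with overlapping genotypes and log2 fold changes of 0.01 (SE 0.08) and -0.06 (SE 0.08). Ss18l2, a small paralog of the chromatin remodelling subunit Ss18 and the member farthest from Slc6a20a, had 995.9, 916, 899 and 769.5 normalized counts in WT mice. It had 809, 884, 767 and 823 in HT mice and 793, 705, 793 and 786 in HM mice. WT replicate 4 fell among the HM values, and the other WT mice lay above all HM and HT mice. Relative to WT, Ss18l2 was shifted by -0.12 (SE 0.08) in HT and by -0.21 (SE 0.08) in HM mice on the log2 scale.

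**Figure D4:**
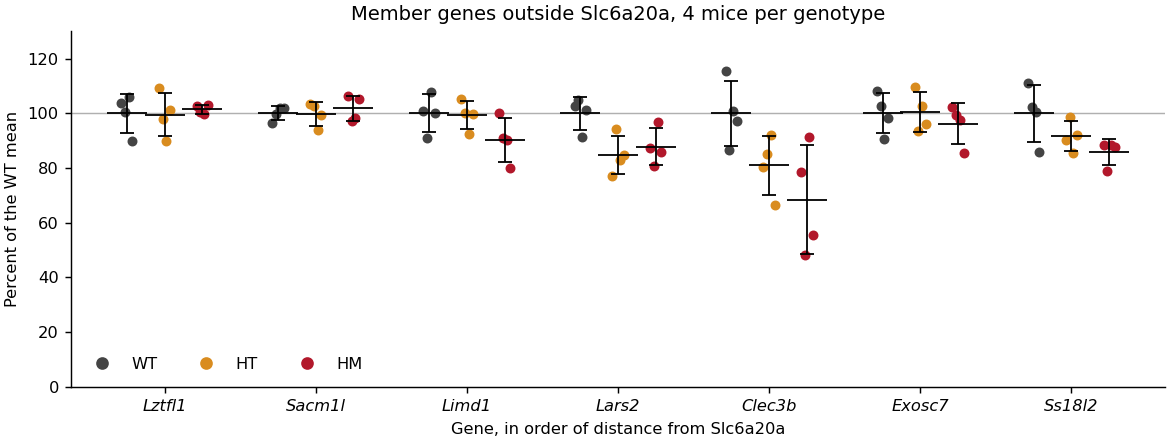
Normalized counts of the 7 members outside Slc6a20a as a percentage of the WT mean of each gene, with 1 point per mouse, the mean and the SD (n = 4), ordered by distance from Slc6a20a. Lztfl1, Sacm1l and Exosc7 stay near 100% in all genotypes, Lars2 has HT and HM means of 84.7% and 87.7%, and Clec3b has the widest spread.

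Across the members, 0 of 10 passed the adjusted threshold in any of the comparisons, against 0.00555% (HT against WT), 0.0111% (HM against WT) and 0.00556% (HM against HT) of all tested genes. Groups without overlap and lower in the mutant were seen for 1 of 10 members in HT against WT (Gm47173) and 2 of 10 in HM against WT (Gm17120 and Gm47173), where the share over all tested genes was 1.91% and 1.81%. For HM against HT it was 1 of 10, again Gm47173, beside 1.14% of all tested genes. Groups without overlap and higher were seen for 0 of 10 members in each comparison, where 1.82%, 2.41% and 1.24% of all tested genes were so placed. An unadjusted limma p under 0.05 with a lower level was met by 3 of 10, 6 of 10 and 2 of 9 fitted members in the 3 comparisons, beside 3.26%, 3.05% and 1.62% of all tested genes, and 0 members met it with a higher level, beside 3.16%, 3.93% and 2.11%. As the members were picked with these values known, nothing is read from these counts. The median log2 fold change of the members was -0.18, -0.20 and -0.09, beside medians of 0.00 over all genes.

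The genes within 5 Mb of Slc6a20a, taken by position, were counted next, first without the members. The table listed 102 such genes, mostly toward lower coordinates because Slc6a20a lies close to the end of chromosome 9. Of those tested, 0 of 93 in HT against WT, 0 of 91 in HM against WT and 0 of 92 in HM against HT passed the adjusted limma threshold. The counts with an unadjusted limma p under 0.05 were 1, 3 and 5, or 1.08%, 3.30% and 5.43% of the tested neighbours, beside 6.42%, 6.99% and 3.74% of all tested genes. With the members included, the counts at that unadjusted threshold were 4 of 103 (3.88%), 9 of 101 (8.91%) and 7 of 101 (6.93%), so the share depends on whether the members, picked with their values known, are counted. Without the members, the median log2 fold change of the neighbours was -0.00, 0.00 and 0.01.

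Within 0.5 Mb of Slc6a20a, 8 other genes were listed. An unadjusted limma p under 0.05 was met by 0 of 6 tested in HT against WT, 1 of 6 in HM against WT and 1 of 7 in HM against HT. The shares over all tested genes were 6.42%, 6.99% and 3.74%. Both times the gene was Slc6a20b, the paralog of Slc6a20a, which lies 2.21 kb from it and shares 9.27% of its 31-base words with Slc6a20a. Its normalized counts were 31.2, 32.7, 25.5 and 27.1 in WT mice, 30.2, 33.4, 19.4 and 25.3 in HT mice and 11.1, 15.7, 17.3 and 23.8 in HM mice, so HM mice did not overlap with WT mice. Slc6a20b differed from WT by -0.12 (SE 0.22) in HT and by -0.78 (SE 0.26) in HM mice on the log2 scale, and the limma adjusted p for HM was 0.655. Slc6a20b also shares 20.5% of its words with Sacm1l on the other strand, and the part of shared reads in its value was not tested. Gm17200 and Ccr9, which overlap the first exon of Slc6a20a by 22 bp on the plus strand, did not follow Slc6a20a. Gm17200 had means of 7.11, 8.41 and 7.36 and was too low to be tested, and Ccr9, a chemokine receptor gene, had 17.2, 19.1 and 18.7 which in HM mice was 0.21 (SE 0.33) above WT on the log2 scale. Fyco1, a gene of vesicle transport 110.6 kb away, had means of 2785, 2838 and 2865, and Tmem158 had 1398, 1365 and 1368, with overlapping genotypes for both.

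Farther out, the neighbours with the smallest unadjusted p included both higher and lower genes. 1700048O20Rik had 177, 168 and 207 normalized counts on average in WT, HT and HM mice, and its HM values lay above all WT and HT values (log2 fold change 0.22, SE 0.10, for HM against WT, limma adjusted p = 0.712). Vill, a villin-like actin-binding gene, was lower in HM than in WT mice by a log2 fold change of -0.25 (SE 0.11, limma adjusted p = 0.700). Gm38661 had means of 14.8, 8.79 and 12.3, and its HT values lay below all WT values (log2 fold change -0.68, SE 0.31, limma adjusted p = 0.770). Gm35549 had means of 12.8, 7.89 and 14.1, and its HM values lay above all HT values (log2 fold change 0.81, SE 0.34, limma adjusted p = 1.00). Cx3cr1, the fractalkine receptor gene of microglia, was lower in HM than in HT mice by -0.18 on the log2 scale (SE 0.06, limma adjusted p = 1.00). None of these passed the adjusted threshold.

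**Figure D5:**
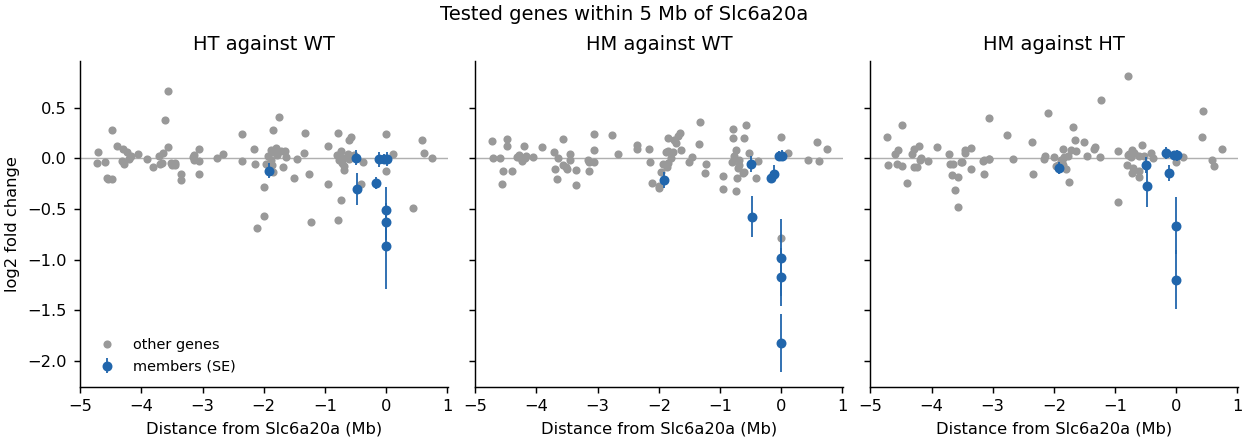
log2 fold change of every tested gene within 5 Mb of Slc6a20a against its distance in Mb (negative values are toward lower coordinates), for the 3 comparisons. Members are blue with their SE and other genes are grey. In HM against WT the 3 lowest points, all at distance 0, are the transcripts inside Slc6a20a, while in HT against WT other genes reach down to -0.68 (Gm38661).

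The partners of the outer members in their known complexes and pathways were also counted, from lists of other genes. Of 16 mitochondrial aminoacyl-tRNA synthetases beside Lars2, 0 passed the adjusted limma threshold in any comparison. An unadjusted p under 0.05 was met by 1, 3 and 2 in HT against WT, HM against WT and HM against HT, all lower. The shares of all tested genes lower at that threshold were 3.26%, 3.05% and 1.62%. Among these synthetases, Nars2 (asparagine) had 437, 433 and 373 normalized counts in WT, HT and HM mice. HM mice differed from WT by -0.23 on the log2 scale (SE 0.07, limma adjusted p = 0.643). Yars2 (tyrosine) had 520.1, 504 and 451, with -0.21 (SE 0.06, limma adjusted p = 0.643). The median log2 fold change of this list was -0.03 for HT and -0.02 for HM against WT, compared with -0.24 and -0.19 for Lars2. Its genes ranged from -0.22 to 0.09 for HT and from -0.24 to 0.11 for HM against WT. Hars2, of this list, had 302, 258 and 262 normalized counts per kb in WT, HT and HM mice, so a decrease of this size was not particular to Lars2. Of the 13 mRNAs encoded by the mitochondrial genome, 0 passed the adjusted threshold. At an unadjusted p under 0.05, 3 were lower in HT and 1 was lower in HM mice than in WT mice, beside 3.26% and 3.05% of all tested genes. In HM against HT, 2 were higher, beside 2.11%.

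None of the lists for the other members held a gene past the adjusted limma threshold in any comparison. Over all tested genes, an unadjusted p under 0.05 was met by 6.42% in HT against WT, 6.99% in HM against WT and 3.74% in HM against HT. Of 10 RNA exosome genes beside Exosc7, 0 had an unadjusted p under 0.05, with medians of -0.05 and -0.04 for HT and HM against WT. Of 9 BBSome genes beside Lztfl1, 0 and 1 did so, the latter being Bbs9 at -0.18 (SE 0.08, limma adjusted p = 0.699) in HM mice, and 2 did so in HM against HT. Of 11 genes of phosphatidylinositol 4-phosphate turnover beside Sacm1l, 0 did so in any comparison, and their medians were 0.00 and 0.01. Of 10 genes of the Ajuba and zyxin family and the Hippo pathway beside Limd1, 1 did so, Zyx, at -0.10 (SE 0.05, limma adjusted p = 0.770) in HT mice. Ss18 and Ss18l1, the relatives of Ss18l2, had HM log2 fold changes of -0.01 (SE 0.06) and 0.07 (SE 0.06).

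The genes most like a member across mice of the same genotype were ranked by Pearson r of centred log2 values over 12 mice among 18005 genes, as a description. For Lars2 they were Kctd17 (r = 0.919), Gm48653 (r = 0.905) and Gm47391 (r = 0.882). For Clec3b they were Tmem258 (r = 0.921), Gm13341 (r = 0.909) and Gata2 (r = 0.901). Gm17120 was closest to Tpm4 (r = 0.935), Gm47173 to AC122119.2 (r = 0.937) and Gm47171 to Lgals4 (r = 0.898). For these 5 members, no other member was among the 3 closest genes. The values compared come from the same libraries.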

How the data were processed

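Per the labels and the study's methods, poly-A RNA was made into libraries with an unstranded kit (TruSeq RNA Sample Prep Kit v2). The deposited table holds a normalized count signal, for which the authors quantified reads on GRCm38 with Salmon 1.1.0, summed transcripts to genes and normalized with DESeq2 1.30.1 in R 4.1.1 (versions from the submitters' processing notes). These values are not whole numbers, so no count model was fitted. Groups came from the sample titles. Of 19775 gene identifiers, 19758 were found in GENCODE M21.

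Genotypes were compared pairwise with limma 3.58.1 (R 4.3.3, variance trend) on log2(normalized count + 1), which understates changes of low genes, restricted to genes averaging 10 or more over the 8 mice compared, with Benjamini-Hochberg (BH) adjustment over all tested genes and a threshold of 0.05. The fit was tested on simulated data. Correlations used 100000 permutations.

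The members, gene lists and tests were chosen with earlier results of these data known. Named genes were the members, Slc6a20a, Slc6a20b, neighbours within 0.5 Mb, neighbours with the 2 smallest p in each direction, the same per functional list for HM against WT, and the genes most alike. C1qtnf12 was named after its values were seen. The table has no read depth, so no counting intervals are given. Separate litters are not stated for the mice.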

Additional observations from a re-analysis of the deposited data

Results flagged for a closer look

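Each of 36 sets of 4 mice, namely 3 genotypes for each of the 10 members, Slc6a20a and Slc6a20b, was checked for a mouse far from the others, and 1 was found. Ss18l2 had 705.2 normalized counts in HM replicate 2, while the other HM mice lay between 786 and 793. The gap to the nearest mouse was 0.919 of the whole range of the group, above Dixon's 95% critical value for 4 samples. Chance flags about 1 in 20 such sets.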

How the results depend on the processing

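The log2 fold changes of Gm17120, Gm47173, Gm47171, Clec3b, Lars2 and Ss18l2 kept their sign under every alternative run. So did Limd1 in HM against WT and HM against HT, Sacm1l in HM against WT and Exosc7 in HM against HT. Under some runs the sign changed for Lztfl1 in every comparison and for Sacm1l, Exosc7 and Limd1 in HT against WT. It also changed under some for Sacm1l in HM against HT and Exosc7 in HM against WT. HM against WT ranged from -2.12 to -1.31 for Gm47173, -1.40 to -0.87 for Gm47171 and -0.24 to -0.15 for Lars2. With a block for animal-number starts, HM against WT was -1.31 for Gm47173, beside -1.82 without the block, and -0.21 for Exosc7. With this block, HM against HT was -0.25 for Exosc7, -0.36 for Limd1, -0.56 for Clec3b and -1.13 for Gm47171. In HT against WT, Gm17120 was -0.56 without HT replicate 3 and -0.57 without WT replicate 4, and Ss18l2 was -0.07 without WT replicate 1 and -0.19 without WT replicate 4. Limd1 in HM against WT was -0.09 without HM replicate 4. In HM against HT, Clec3b was -0.12 without HM replicate 2 and -0.42 without HM replicate 3. Slc6a20b in HT against WT ranged from -0.23 (without HT replicate 2) to 0.02 (without HT replicate 3). Genes past the adjusted threshold, all genes counted, numbered 1, 2 and 1 in HT against WT, HM against WT and HM against HT. Without a trend in the variance prior, where Slc6a20a in HT had an adjusted limma p of 0.145, they numbered 0, 1 and 1, with no filter the last was 2 and with a block for animal-number starts it was 3. Leaving out single mice gave 1 to 5, 2 to 3 and 1 to 7, with 5 in HT against WT without HT replicate 3, 3 in HM against WT without HM replicate 3 or 4, and 7 in HM against HT without HM replicate 2 or 3. Neighbours within 5 Mb at an unadjusted p under 0.05 numbered 1, 3 and 5. They became 3 in HT and 1 in HM against HT with the animal-number block. In HT they were 0 with at least 10 in every mouse, 2 without the variance trend and 0 after quantile normalization, which gave 5 in HM. Leaving out single mice gave 1 to 3, 2 to 4 and 1 to 7. The share in HT was 0% within 1 Mb and 1.85% within 2.5 Mb, beside 1.08% within 5 Mb. Within genotypes, the correlation of Lars2 with mt-Rnr1 turned to -0.40 and with mt-Rnr2 to -0.32, but to 0.13 and 0.27 with the 2 most distant mice left out. The cause of these shifts was not tested.

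Replicate numbers in the titles did not pair the mice: in 0 of 12 same-numbered pairs did the correlation of deviations exceed 0.1 (-0.0658 to 0.0869), and 4 of 12 mice correlated best with their own number. With the replicate block, genes past the threshold numbered 1, 1 and 1. The low normalized counts of the intragenic transcripts, 4.00 to 64.2 in mutant mice, limit their precision.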
